A study of Mus musculus with 8 samples.

Results

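The lysosomal genes described here are 51 mouse genes for lysosomal hydrolases and their activators, lysosomal membrane proteins, the proton pump that acidifies the organelle and the MiT/TFE transcription factors. They were taken from the deposited count table as a named list, with cathepsins left out, and all 51 were among its 24421 gene symbols. Of the 51, 50 had enough counts to be tested, as did 13722 genes in all. The count table comes from RNA sequencing of 8 libraries of C57BL/6 mouse bone marrow cells. The cells of both lines are labelled with MLL-AF10, an oncogenic fusion of MLL and AF10 found in leukaemia. The 4 groups, with 2 libraries each, were MATIP cells given 4-hydroxytamoxifen (4-OHT), MATIP cells given ethanol (EtOH), MAflox cells given 4-OHT and MAflox cells given EtOH. MATIP cells carry floxed Tip60 alleles (gene Kat5, a histone acetyltransferase) and Cre-ERT2, a recombinase that 4-OHT activates, so that the comparison in MATIP cells asks what follows deletion of Tip60. MAflox cells are named as MLL-AF10 flox cells in the labels, which say neither which sequence is floxed nor whether Cre-ERT2 is present. Whether MLL-AF10 was still present in MAflox cells after 4-OHT is not given. All cells grew in the methylcellulose medium Methocult with SCF, IL-3 and GM-CSF at 10 nM each, and 4-OHT was given at 100 nM for 4 days.

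Lysosomes are acidic organelles in which hydrolases break down lipids, glycans, proteins and glycogen taken up from outside or delivered by autophagy. A V-type ATPase pumps protons into the lumen: its V1 sector in the cytosol hydrolyses ATP and its V0 sector in the membrane moves the protons. Many lysosomal genes are targets of the related factors TFEB, TFE3 and MITF, which bind a short palindrome in promoters, the CLEAR element. In the myeloid lineage, macrophages and osteoclasts are known for a large lysosomal compartment.

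Depth ran between 41101309 and 57312490 counts, with 14380 to 15822 genes detected. Kat5 checked the labels, with 8.11 and 8.32 CPM in MATIP 4-OHT libraries, against 41.1 and 41.2 CPM in MATIP EtOH libraries (log2 change -2.32 ± 0.09 SE, edgeR adjusted p = 6.99e-15). In MAflox cells it had 57.5 and 62.5 CPM with 4-OHT, against 43.7 and 41.2 CPM with EtOH (log2 change 0.50 ± 0.07, edgeR adjusted p = 7.5e-06). Levels are in CPM, each gene's counts relative to the TMM-scaled library size. Marker genes of myeloid blood cells were present, with 8 of 8 tested. They summed to 7678 to 7817 CPM in MATIP 4-OHT libraries, against 12628 to 13088 CPM in MATIP EtOH libraries (5 rose, 3 fell). The sum was 7993.5 to 8008 CPM in MAflox 4-OHT libraries, against 7311 to 7400 CPM in MAflox EtOH libraries (6 rose, 2 fell). Mpo and Cebpa fell in both lines, and Elane fell in MATIP cells only. Over all genes tested 37.5% rose and 38.6% fell in MATIP cells, and 33.1% rose and 32.1% fell in MAflox cells. Of 15 macrophage markers 12 were tested and 12 rose in MATIP cells, with a summed level of 23383 to 24418 CPM in MATIP 4-OHT libraries, against 443 to 486 CPM in MATIP EtOH libraries. Of the same 12 genes 11 rose in MAflox cells, with 5152 to 5248 CPM in MAflox 4-OHT libraries, against 285 to 303 CPM in MAflox EtOH libraries. Most of the sum in MAflox 4-OHT libraries was Lyz2, with 4127 and 4322 CPM. In MATIP 4-OHT libraries Lyz2 had 8319 and 8935 CPM. C1qa had 0 counts in every library. All 11 tested markers of mature neutrophils rose in both lines, to 35438 to 39014 CPM in MATIP 4-OHT libraries, against 766 to 909 CPM in MATIP EtOH libraries, and to 51059 to 54679 CPM in MAflox 4-OHT libraries, against 219 to 223 CPM in MAflox EtOH libraries. Of 9 osteoclast markers 7 were tested. The 9 genes summed to 1151 to 1161 CPM in MATIP 4-OHT libraries, against 53.2 to 53.3 CPM in MATIP EtOH libraries, with 6 rising. Most of the MATIP 4-OHT sum was Atp6v0d2 (449 and 440 CPM), Mmp9 (387 and 382 CPM) and Ctsk (256 and 281 CPM). Acp5 did not pass the test in either line. In MAflox cells the osteoclast sum was 88.9 to 93.5 CPM with 4-OHT, against 39.96 to 41.9 CPM with EtOH, with 4 rising and 1 falling. Calcr had 0 counts throughout. Markers of eosinophils, mast cells and basophils, stromal and dendritic cells, the erythroid and megakaryocyte lineages and lymphocytes summed to at most 207 CPM per list in any library. Dendritic cell markers summed to 90.1 to 93.1 CPM in MATIP 4-OHT libraries, against 4.50 to 4.83 CPM in MATIP EtOH libraries (3 of 4 tested rose). Nearly all of the MATIP 4-OHT sum was Itgax, with 90.5 and 86.6 CPM. Flt3 fell in MATIP cells (log2 change -1.89), and 6 of the 8 listed dendritic markers averaged under 1 CPM over all libraries. Eosinophil markers summed to 52.6 to 80.7 CPM in MAflox 4-OHT libraries, against 7.83 to 9.23 CPM in MAflox EtOH libraries (6 of 7 tested rose). The haemoglobin genes Hba-a1, Hba-a2, Hbb-bs and Hbb-bt and the lymphoid genes Cd3e, Cd8a and Ncr1 had 0 counts in every library. Cd68, Acp5 and Atp6v0d2 stand both in these marker lists and in the lists of other lysosomal genes described later. Mmp9 stands in both the neutrophil and the osteoclast list. The part of these cell type shifts in the lysosomal results was not tested, and in bulk RNA fewer cells of a type cannot be told apart from less RNA per cell. Whether both libraries of a group are from different cultures is not in the labels, and the p-values reflect no more than how these libraries scatter, which may be technical.

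After 4-OHT most lysosomal genes were higher in both lines, with a larger median change in MATIP cells. In MATIP cells 46 of the 50 tested members rose (92%), against 37.5% of all genes tested, and 4 fell (8%), against 38.6% of all genes, so that all 50 changed, against 76.1% of all genes. In MAflox cells 39 rose (78%), against 33.1% of all genes, 8 fell (16%), against 32.1% of all genes, and Pla2g15, Man2b1 and Ids did not pass the test, so that 47 changed (94%), against 65.2% of all genes. The median log2 change of the members was 0.84 in MATIP cells, beside 0.00 over all genes tested, and 0.62 in MAflox cells, beside 0.02 over all genes. Among the members, 18 rose at least 2-fold in MATIP cells and 8 in MAflox cells, and none fell 2-fold in either. The share of all genes at this 2-fold cut was not taken, so these counts do not set the members apart. The same 39 genes rose in both lines (78%), against 20.3% of all genes tested. In both lines 4 fell (Arsa, Gaa, Manba and Gusb, 8%), against 21.2% of all genes. Another 4 rose in MATIP cells and fell in MAflox cells (Npc1, Sgsh, Idua and Tfe3, 8%), against 5.16% of all genes.

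**Figure D1:**
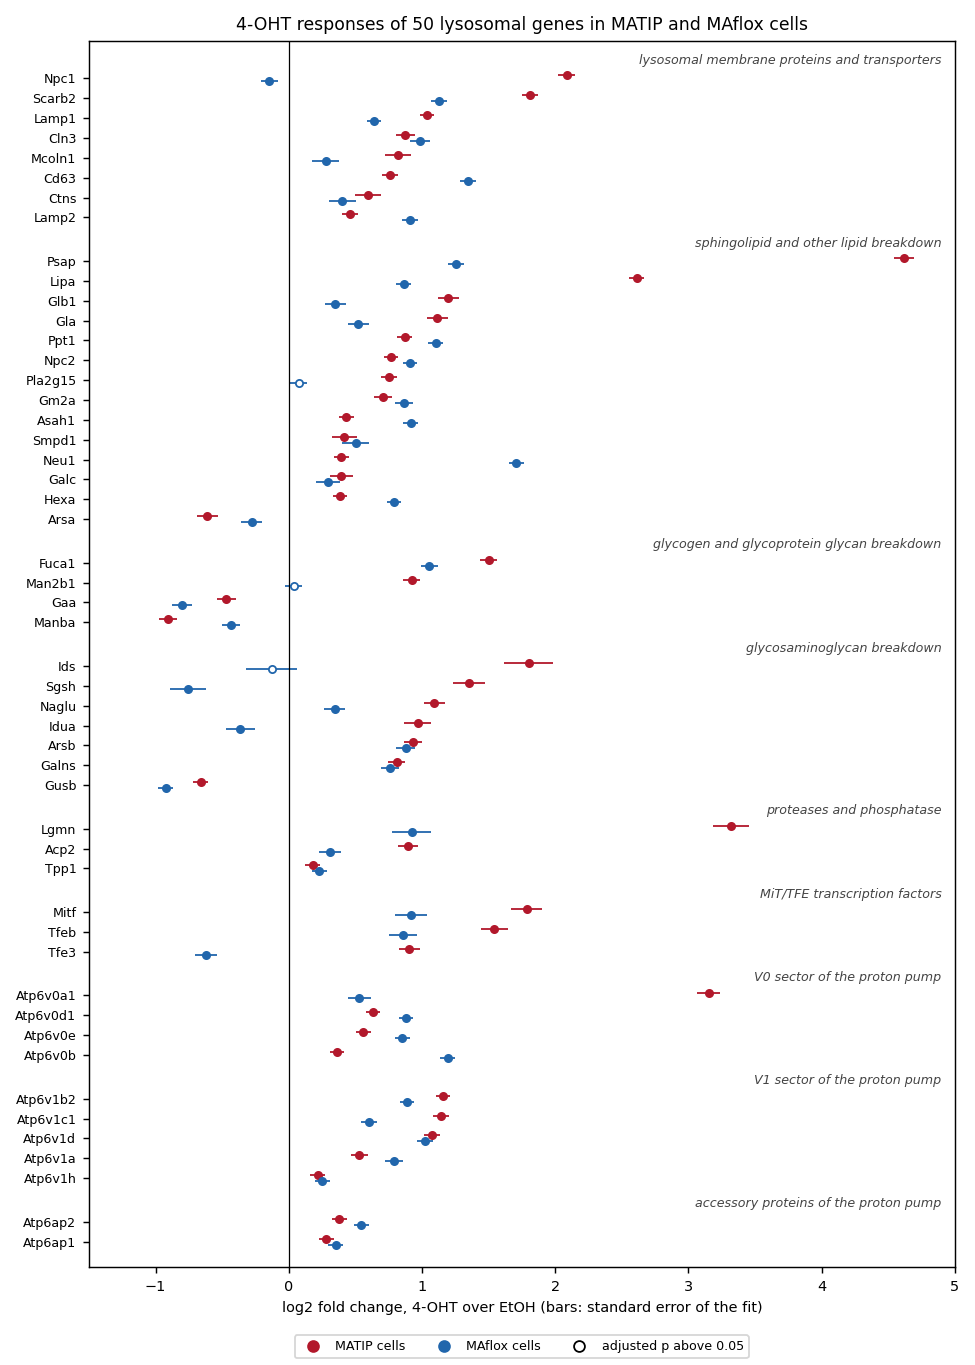
The log2 fold change of 4-OHT over EtOH is drawn for the 50 tested lysosomal genes, ordered by role and then by the MATIP value, with red points for MATIP cells, blue points for MAflox cells and bars for the standard error of the fit. Open points did not pass the edgeR test at an adjusted p of 0.05; Psap lies furthest right, at 4.62 in MATIP cells and 1.26 in MAflox cells.

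Summed over all members, the level was 24924 and 25355 CPM in MATIP 4-OHT libraries, against 6546 and 6590 CPM in MATIP EtOH libraries. It was 8775 and 8565 CPM in MAflox 4-OHT libraries, against 5353 and 5357 CPM in MAflox EtOH libraries. The sum in MATIP 4-OHT libraries rested largely on 1 gene, Psap, which supplied 59.7% of it in each of the 2 libraries, against 9.48% and 9.12% in MATIP EtOH libraries. Without Psap the members summed to 10042 and 10206 CPM in MATIP 4-OHT libraries, against 5925 and 5989 CPM in MATIP EtOH libraries. The MAflox sums without Psap were 7516 and 7490 CPM with 4-OHT, against 4870 and 4862 CPM with EtOH.

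The 8 membrane proteins and transporters all rose in MATIP cells (median log2 change 0.85), and 7 of 8 rose in MAflox cells (median 0.77). Beside this and each role group below stand the shares of all genes tested that rose, 37.5% in MATIP cells and 33.1% in MAflox cells. LAMP1 and LAMP2 are the most abundant glycoproteins of the lysosomal membrane. Lamp1 had 1237 and 1290 CPM in MATIP 4-OHT libraries, against 624 and 607 CPM in MATIP EtOH libraries (log2 change 1.04 ± 0.05 SE, edgeR adjusted p = 9.35e-13). It had 687 and 683 CPM in MAflox 4-OHT libraries, against 441 and 439 CPM in MAflox EtOH libraries (log2 change 0.64 ± 0.05, edgeR adjusted p = 2.53e-09). Lamp1 libraries did not overlap between treatments in either line, and the MATIP 4-OHT libraries were the highest of all. Lamp2 ran the other way between the lines, with 411 and 403 CPM in MATIP 4-OHT libraries, against 293 and 299 CPM in MATIP EtOH libraries (log2 change 0.46 ± 0.06). Its MAflox values were 509 and 553 CPM with 4-OHT, against 274 and 291 CPM with EtOH (log2 change 0.91 ± 0.06), so that the MAflox 4-OHT libraries were the highest.

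NPC1 exports cholesterol from the lysosome, and its gene showed the widest split between the lines among the membrane proteins. Npc1 had 312 and 292 CPM in MATIP 4-OHT libraries, against 70.5 and 71.7 CPM in MATIP EtOH libraries, a 4.25-fold rise (log2 change 2.09 ± 0.06, edgeR adjusted p = 3.02e-16). The MAflox values were 47.4 and 43.5 CPM with 4-OHT, against 49.8 and 50.99 CPM with EtOH (log2 change -0.15 ± 0.06, edgeR adjusted p = 0.0484). That small fall lost its call under nearly every other processing, with an adjusted p of 0.0511 to 0.43, and held it only without MAflox 4-OHT replicate 1. The tetraspanin gene Cd63 had 554 and 551 CPM in MAflox 4-OHT libraries, against 219 and 216 CPM in MAflox EtOH libraries (log2 change 1.34 ± 0.06). Its MATIP values were 623 and 694 CPM with 4-OHT, against 395 and 383 CPM with EtOH (log2 change 0.76 ± 0.06). Cd63 gained less in MATIP cells, whose EtOH libraries were already higher than those of MAflox cells. Of the others, Scarb2, the receptor that carries glucocerebrosidase to lysosomes, changed by 1.81 in MATIP cells and 1.13 in MAflox cells (log2). The calcium channel gene Mcoln1, the cystine exporter gene Ctns and Cln3, whose loss causes a juvenile lysosomal storage disease, rose by 0.82, 0.60 and 0.88 in MATIP cells and by 0.28, 0.40 and 0.99 in MAflox cells on the log2 scale. The MAflox call of Mcoln1 was lost without MAflox 4-OHT replicate 1 (edgeR adjusted p = 0.146) or MAflox EtOH replicate 2 (0.166).

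**Figure D2:**
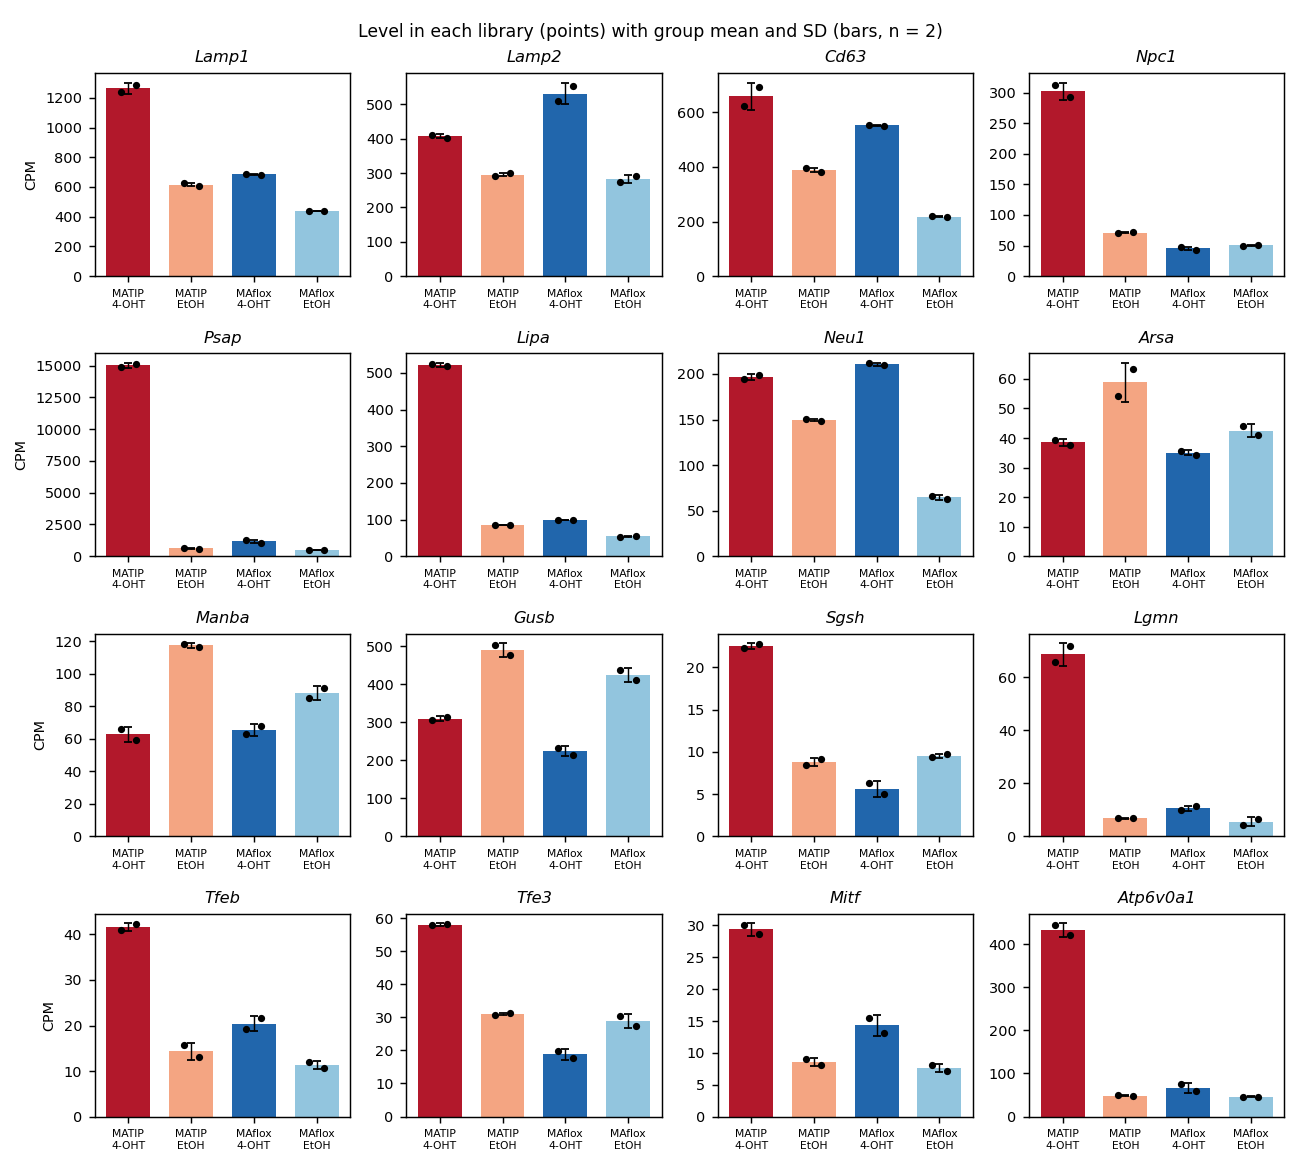
Levels in CPM of 16 lysosomal genes are drawn for each library (points) with the group mean and SD (bars, n = 2), in the order MATIP 4-OHT, MATIP EtOH, MAflox 4-OHT and MAflox EtOH. Psap stands at 14882 and 15148 CPM in MATIP 4-OHT libraries and at no more than 1259 CPM in any other library, whereas Neu1 and Lamp2 are highest in MAflox 4-OHT libraries and Gusb is lower with 4-OHT in both lines.

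Among 14 genes for the breakdown of sphingolipids and other lipids, 13 rose and 1 fell in MATIP cells, and 12 rose, 1 fell and 1 did not pass in MAflox cells. Psap, which encodes the precursor of the saposins that present sphingolipids to their hydrolases, had 14882 and 15148 CPM in MATIP 4-OHT libraries, against 620.3 and 601 CPM in MATIP EtOH libraries. This was a 24.6-fold rise (log2 change 4.62 ± 0.07 SE, edgeR adjusted p = 2.2e-20). In MAflox cells Psap had 1259 and 1075 CPM with 4-OHT, against 483 and 494 CPM with EtOH (log2 change 1.26 ± 0.06, edgeR adjusted p = 2.22e-12). Every MATIP 4-OHT library held far more Psap than any other library. Psap is a protein-coding gene on chromosome 10, from 60277627 to 60302597 on the plus strand of mm10. Lipa, the lysosomal acid lipase that frees cholesterol and fatty acids from lipoprotein esters, had 526 and 519 CPM in MATIP 4-OHT libraries, against 85.04 and 85.7 CPM in MATIP EtOH libraries (log2 change 2.61 ± 0.06). Its MAflox values were 99.02 and 98.1 CPM with 4-OHT, against 53.1 and 55.3 CPM with EtOH (log2 change 0.86 ± 0.06). Lipa, like Psap, rose in both lines with no overlap between treatments.

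Neu1, the lysosomal sialidase, had the largest rise of any member in MAflox cells, with 212 and 209.6 CPM in MAflox 4-OHT libraries, against 66.4 and 62.6 CPM in MAflox EtOH libraries (log2 change 1.71 ± 0.06, edgeR adjusted p = 4.86e-15). In MATIP cells it had 194 and 199 CPM with 4-OHT, against 151 and 148 CPM with EtOH (log2 change 0.40 ± 0.05, edgeR adjusted p = 2.4e-06). The lines lay close to each other with 4-OHT, and in EtOH the MATIP libraries held more Neu1 than the MAflox libraries. Arsa, which removes sulfate from sulfatide, fell in both lines. It had 39.4 and 37.6 CPM in MATIP 4-OHT libraries, against 54.1 and 63.4 CPM in MATIP EtOH libraries (log2 change -0.61 ± 0.08), and MAflox values of 35.6 and 34.4 CPM with 4-OHT, against 44.01 and 41.02 CPM with EtOH (log2 change -0.28 ± 0.08). The MAflox fall of Arsa missed the threshold without MAflox 4-OHT replicate 2 (edgeR adjusted p = 0.0667), without MAflox EtOH replicate 1 (0.0574) and with the length and GC trend removed (0.138). Of the exon bases of Arsa, 18.8% are shared with an annotated gene on the opposite strand, and it is not stated whether counting used strand. The other 10 genes rose in MATIP cells, with log2 changes of Glb1 at 1.20, Gla at 1.11, Ppt1 at 0.87, Npc2 at 0.77, Pla2g15 at 0.75, Gm2a at 0.71, Asah1 at 0.43, Smpd1 at 0.42, Galc at 0.39 and Hexa at 0.38. These encode beta-galactosidase, alpha-galactosidase A, a thioesterase for fatty-acylated proteins, a cholesterol carrier, a phospholipase, the GM2 activator, acid ceramidase, acid sphingomyelinase, galactosylceramidase and the alpha subunit of hexosaminidase. In MAflox cells the log2 changes of the same genes were Glb1 at 0.35, Gla at 0.52, Ppt1 at 1.10, Npc2 at 0.91, Pla2g15 at 0.07, Gm2a at 0.87, Asah1 at 0.91, Smpd1 at 0.50, Galc at 0.29 and Hexa at 0.79, of which Pla2g15 did not pass the test (edgeR adjusted p = 0.315) and Galc did not without MAflox 4-OHT replicate 2 (edgeR adjusted p = 0.122).

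The 4 enzymes of glycogen and glycoprotein glycan breakdown did not move together. Fuca1, the alpha-fucosidase, rose in both lines, with 141 and 143 CPM in MATIP 4-OHT libraries, against 46.9 and 53.3 CPM in MATIP EtOH libraries (log2 change 1.5 ± 0.07). In MAflox cells Fuca1 had 104 and 100.0 CPM with 4-OHT, against 48.3 and 49.96 CPM with EtOH (log2 change 1.06 ± 0.07). Gaa and Manba went the other way. Manba, the beta-mannosidase, had 66.2 and 59.3 CPM in MATIP 4-OHT libraries, against 118 and 116 CPM in MATIP EtOH libraries (log2 change -0.91 ± 0.07, edgeR adjusted p = 3.66e-10), the largest fall among the members in MATIP cells. Its MAflox values were 62.8 and 67.9 CPM with 4-OHT, against 85.1 and 91.1 CPM with EtOH (log2 change -0.43 ± 0.07). Gaa, the enzyme that degrades lysosomal glycogen, had 103 and 108 CPM in MATIP 4-OHT libraries, against 144 and 149.5 CPM in MATIP EtOH libraries (log2 change -0.47 ± 0.07). In MAflox cells it fell further, with 64.8 and 53.8 CPM for 4-OHT, against 103 and 104 CPM for EtOH (log2 change -0.80 ± 0.07). For Manba and Gaa every 4-OHT library lay below the EtOH libraries of its line. Man2b1, an alpha-mannosidase, had 448 and 444 CPM in MATIP 4-OHT libraries, against 223 and 248 CPM in MATIP EtOH libraries (log2 change 0.92 ± 0.06). Its MAflox libraries overlapped, with 239 and 209.8 CPM for 4-OHT, against 219 and 218 CPM for EtOH (log2 change 0.04 ± 0.06, edgeR adjusted p = 0.633). With the length and GC trend removed the MAflox change of Man2b1 was a called rise of 0.19 (edgeR adjusted p = 0.0145).

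The 7 enzymes that degrade glycosaminoglycans mostly rose in MATIP cells (6 up, 1 down) and split in MAflox cells (3 up, 3 down, 1 not passing). Over all genes tested 37.5% rose and 38.6% fell in MATIP cells, and 33.1% rose and 32.1% fell in MAflox cells. Gusb, the beta-glucuronidase, was the exception in MATIP cells, with 305 and 313 CPM in MATIP 4-OHT libraries, against 502 and 477 CPM in MATIP EtOH libraries (log2 change -0.66 ± 0.06, edgeR adjusted p = 4.34e-09). It also had the largest fall of any member in MAflox cells, with 233 and 214 CPM for 4-OHT, against 438 and 412 CPM for EtOH (log2 change -0.92 ± 0.06, edgeR adjusted p = 6.26e-11). Gusb took the most counts of these genes in every library, and their summed level was 468 and 435 CPM in MAflox 4-OHT libraries, against 589 and 575 CPM in MAflox EtOH libraries, and was 633 and 647 CPM in MATIP 4-OHT libraries, against 664 and 651 CPM in MATIP EtOH libraries. Sgsh and Idua act on heparan sulfate, and each was called up in MATIP cells and down in MAflox cells. Sgsh had 22.3 and 22.7 CPM in MATIP 4-OHT libraries, against 8.46 and 9.14 CPM in MATIP EtOH libraries (log2 change 1.35 ± 0.12). In MAflox cells Sgsh had 6.297 and 4.97 CPM with 4-OHT, against 9.36 and 9.72 CPM with EtOH (log2 change -0.76 ± 0.13), and 21.6% of its exon bases are shared with Card14 on the opposite strand.

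Idua had 42.7 and 43.7 CPM in MATIP 4-OHT libraries, against 19.5 and 24.6 CPM in MATIP EtOH libraries (log2 change 0.97 ± 0.10), and in MAflox cells 15.5 and 13.7 CPM with 4-OHT, against 18.1 and 19.6 CPM with EtOH (log2 change -0.37 ± 0.11, edgeR adjusted p = 0.00608). The MAflox fall of Idua missed the threshold without MAflox 4-OHT replicate 2 (edgeR adjusted p = 0.108) or without MAflox EtOH replicate 2 (0.0503). Ids, the iduronate sulfatase, had the largest rise of the group in MATIP cells, with 13.4 and 11.3 CPM in MATIP 4-OHT libraries, against 3.74 and 3.35 CPM in MATIP EtOH libraries (log2 change 1.80 ± 0.18). Its MAflox libraries overlapped, with 4.61 and 3.06 CPM for 4-OHT, against 4.16 and 4.25 CPM for EtOH (edgeR adjusted p = 0.577). Arsb, the sulfatase for dermatan sulfate, had 83.1 and 83.9 CPM in MATIP 4-OHT libraries, against 42.8 and 44.6 CPM in MATIP EtOH libraries (log2 change 0.93 ± 0.07), and 85.2 and 77.6 CPM in MAflox 4-OHT libraries, against 42.6 and 46.01 CPM in MAflox EtOH libraries (log2 change 0.88 ± 0.07). The difference of its responses, 0.06 ± 0.10 (SE), did not pass the test, and 39.9% of its exon bases are shared with genes on the opposite strand. Naglu and Galns, an N-acetylglucosaminidase and a galactosamine sulfatase, rose by 1.09 and 0.81 in MATIP cells and by 0.34 and 0.76 in MAflox cells on the log2 scale.

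All 3 protease and phosphatase genes rose in both lines, against 20.3% of all genes tested. Lgmn, the asparaginyl endopeptidase legumain, had 65.6 and 71.6 CPM in MATIP 4-OHT libraries, against 7.002 and 6.75 CPM in MATIP EtOH libraries, a 9.99-fold rise (log2 change 3.32 ± 0.13, edgeR adjusted p = 3.19e-14). In MAflox cells it had 9.804 and 11.3 CPM with 4-OHT, against 4.31 and 6.704 CPM with EtOH (log2 change 0.92 ± 0.15, edgeR adjusted p = 1.64e-05). Lgmn was low in all libraries except those of MATIP cells with 4-OHT. The acid phosphatase gene Acp2 rose by 0.89 in MATIP cells and 0.31 in MAflox cells (log2). Tpp1, a tripeptidyl peptidase, had the smallest rise of any member in MATIP cells, with 145 and 143 CPM in MATIP 4-OHT libraries, against 129 and 126 CPM in MATIP EtOH libraries (log2 change 0.18 ± 0.05, edgeR adjusted p = 0.00632). That call was lost without MATIP EtOH replicate 2 (edgeR adjusted p = 0.0733), and in MAflox cells Tpp1 rose by 0.23 on the log2 scale.

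The transcripts of all 3 MiT/TFE factors rose in MATIP cells, while in MAflox cells 2 rose and 1 fell. Tfeb had 41.05 and 42.2 CPM in MATIP 4-OHT libraries, against 15.6 and 13.03 CPM in MATIP EtOH libraries (log2 change 1.54 ± 0.10, edgeR adjusted p = 5.96e-11). The MAflox values were 19.2 and 21.6 CPM with 4-OHT, against 11.9 and 10.6 CPM with EtOH (log2 change 0.86 ± 0.11, edgeR adjusted p = 8.46e-07). Mitf followed the same order, with 30.1 and 28.7 CPM in MATIP 4-OHT libraries, against 8.96 and 8.104 CPM in MATIP EtOH libraries (log2 change 1.79 ± 0.11). Its MAflox values were 15.5 and 13.1 CPM with 4-OHT, against 8.06 and 7.14 CPM with EtOH (log2 change 0.92 ± 0.12). For both genes the MATIP 4-OHT libraries were the highest and no treated library overlapped its EtOH libraries. Tfe3 differed, with 57.8 and 58.3 CPM in MATIP 4-OHT libraries, against 30.7 and 31.3 CPM in MATIP EtOH libraries (log2 change 0.91 ± 0.08, edgeR adjusted p = 4.59e-09). In MAflox cells Tfe3 had 19.9 and 17.7 CPM with 4-OHT, against 30.4 and 27.5 CPM with EtOH (log2 change -0.62 ± 0.08, edgeR adjusted p = 2.72e-06), so the MAflox 4-OHT libraries were the lowest of all. These values are transcript levels, and the factors are known to be regulated largely by phosphorylation and nuclear entry, which were not measured.

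Promoters were read from RefSeq (GRCm38.p6) as windows of 300 bases, from 250 before to 50 after each gene's start, and 45 of the 51 members had one. The full CLEAR palindrome, TCACGTGA with a G before it and a C after it, was in the window of 1 of these, Cln3, and in 0.789% of tested genes with a window. The 8-base core TCACGTGA, which reads the same on both strands, was in 6 of the 45 members (13.3%) and in 2.11% of tested genes with a window. The shorter CACGTG, which the core contains, was in 14 of the 45 members (31.1%) and in 11.4% of tested genes with a window. The members with the core were Gla, Cln3, Mcoln1, Atp6v0d1, Atp6v0e and Atp6v1a. All 6 rose in both lines, as did 39 of the 50 tested members (78%) and 20.3% of all genes tested. This count does not set the 6 apart. Their median log2 change was 0.72 in MATIP cells (0.53 to 1.11) and 0.82 in MAflox cells, beside 0.88 in MATIP cells and 0.54 in MAflox cells for the 38 tested members whose window lacks it. The sites of the 4 with the largest MATIP response are shown with 11 bases on each side, 5′ to 3′ on the gene's strand, with the core in capitals.
Gla: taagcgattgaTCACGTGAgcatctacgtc
Cln3: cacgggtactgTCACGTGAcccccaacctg
Mcoln1: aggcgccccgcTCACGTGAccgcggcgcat
Atp6v0d1: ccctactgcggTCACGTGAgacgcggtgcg
They lie at chrX:134601215-134601244 (minus strand), chr7:126583340-126583369 (minus), chr8:3500462-3500491 (plus) and chr8:105566050-105566079 (minus). The first base of the core is 228 bases before the RefSeq start in Gla, 122 in Cln3, 46 in Mcoln1 and 4 in Atp6v0d1, and the Gla window holds a further match. In the GENCODE annotation all 30 printed bases lie in exons, of the gene or a neighbour, for Gla, Cln3 and Mcoln1. For Atp6v0d1 0 do. The flanks differ between the genes, and only in Cln3 do they extend the core to the full palindrome. A match of letters is a description of the window and was not tested as a binding site.

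All 11 tested subunits and accessory proteins of the proton pump rose in both lines, against 20.3% of all genes tested. The median log2 change was 0.56 in MATIP cells and 0.79 in MAflox cells. In the V0 sector, the a1 subunit stood apart. Atp6v0a1 had 443 and 421 CPM in MATIP 4-OHT libraries, against 49.2 and 47.9 CPM in MATIP EtOH libraries, a 8.896-fold rise (log2 change 3.15 ± 0.09, edgeR adjusted p = 8.28e-17). In MAflox cells it had 74.6 and 58.1 CPM with 4-OHT, against 45.5 and 46.5 CPM with EtOH (log2 change 0.53 ± 0.08, edgeR adjusted p = 1.66e-05). Atp6v0b, a subunit of the proteolipid ring, showed the reverse order of lines, with 315 and 313 CPM in MAflox 4-OHT libraries, against 139.7 and 135 CPM in MAflox EtOH libraries (log2 change 1.19 ± 0.05). Its MATIP values were 189.9 and 197 CPM with 4-OHT, against 154 and 148 CPM with EtOH (log2 change 0.36 ± 0.05), and 11.8% of its exon bases are shared with a gene on the opposite strand. Atp6v0d1 and Atp6v0e rose by 0.63 and 0.56 in MATIP cells and by 0.88 and 0.85 in MAflox cells (log2). Atp6v0c, the main proteolipid subunit, could not be tested, since its counts were 2 and 11 in MATIP 4-OHT libraries, 2 and 3 in MATIP EtOH libraries, 1 and 6 in MAflox 4-OHT libraries and 2 and 2 in MAflox EtOH libraries. Atp6v0c has near-identical copies, and whether featureCounts kept, split or dropped multi-mapping reads was not stated.

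In the V1 sector, Atp6v1b2, which carries part of the ATP-binding site, had 451 and 452 CPM in MATIP 4-OHT libraries, against 201 and 204 CPM in MATIP EtOH libraries (log2 change 1.16 ± 0.05). The MAflox values were 335 and 349.8 CPM with 4-OHT, against 187 and 184 CPM with EtOH (log2 change 0.88 ± 0.05). Atp6v1d, a subunit of the rotor, had 128 and 135 CPM in MATIP 4-OHT libraries, against 62.4 and 62.7 CPM in MATIP EtOH libraries (log2 change 1.08 ± 0.06), and 106 and 99.1 CPM in MAflox 4-OHT libraries, against 51.4 and 49.5 CPM in MAflox EtOH libraries (log2 change 1.02 ± 0.06). Atp6v1b2 rose slightly more in MATIP cells (difference 0.27 ± 0.07), and the difference for Atp6v1d, 0.06 ± 0.09, did not pass the test. Atp6v1c1, which links V1 to V0, had the largest response difference of the sector, with 234 and 237 CPM in MATIP 4-OHT libraries, against 107 and 107 CPM in MATIP EtOH libraries (log2 change 1.14 ± 0.06). Its MAflox values were 122 and 134 CPM with 4-OHT, against 86.2 and 82.5 CPM with EtOH (log2 change 0.60 ± 0.06). The catalytic subunit gene Atp6v1a and the regulatory subunit gene Atp6v1h rose by 0.53 and 0.22 in MATIP cells and by 0.79 and 0.25 in MAflox cells (log2). Of the accessory proteins, Atp6ap2 had 308 and 315 CPM in MATIP 4-OHT libraries, against 243 and 235 CPM in MATIP EtOH libraries (log2 change 0.38 ± 0.06), and 293 and 293 CPM in MAflox 4-OHT libraries, against 209 and 193 CPM in MAflox EtOH libraries (log2 change 0.54 ± 0.06). Atp6ap1 rose by 0.28 in MATIP cells and 0.35 in MAflox cells (log2).

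**Figure D3:**
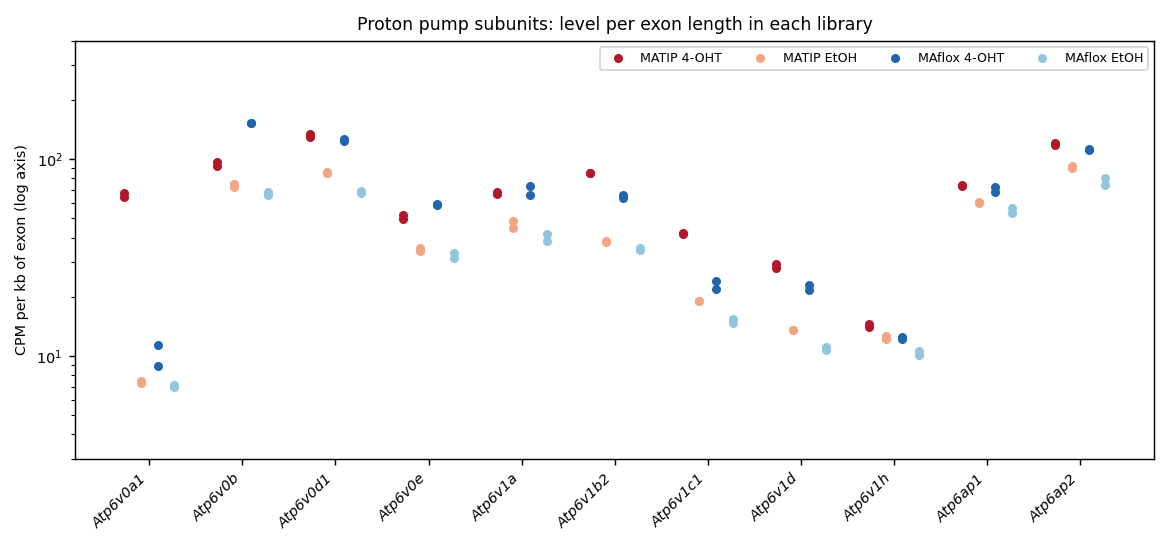
Levels of the 11 tested proton pump genes per kilobase of exon are drawn on a log axis, 1 point per library, with the groups of each gene from left to right MATIP 4-OHT, MATIP EtOH, MAflox 4-OHT and MAflox EtOH. Atp6v0a1 averages 65.9 CPM per kb in MATIP 4-OHT libraries and 7.41 in MATIP EtOH libraries, the widest gap between treatments of the genes drawn.

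Levels per kilobase of exon, which allow genes to be set against each other, placed Psap first in MATIP 4-OHT libraries, at 5472 ± 68.7 CPM per kb (SD, n = 2), and Lamp1 second, at 472 ± 14.0 CPM per kb. Cd63 and Hexa followed at 179 ± 13.5 and 176 ± 2.69 CPM per kb and did not differ beyond their spread. In MATIP EtOH libraries Lamp1 and Psap led, at 230 ± 4.55 and 223 ± 4.92 CPM per kb, again within their spread. In MAflox 4-OHT libraries Psap averaged 425 ± 47.2 CPM per kb and Lamp1 256 ± 0.95 CPM per kb. In MAflox EtOH libraries the order was Psap at 178 ± 2.85 and Lamp1 at 164 ± 0.478 CPM per kb. By all exon bases Psap exceeded Lamp1 beyond their spread in every group but MATIP EtOH. This order depended on the length used. Per kilobase of the longest transcript Psap was above Lamp1 in MATIP 4-OHT libraries, at 5651 and 567 CPM per kb, and below it in MATIP EtOH libraries, at 230 for Psap and 276 for Lamp1. In MAflox 4-OHT libraries Psap stood at 439, Atp6v0b at 314 and Lamp1 at 307 CPM per kb of the longest transcript, and in MAflox EtOH libraries Psap stood at 184 and Lamp1 at 197.

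The response to 4-OHT was then compared between the lines, gene by gene, as the difference of the 2 log2 changes. Of the 50 members, 25 had a higher response in MATIP cells (50%), against 28.3% of all genes tested, and 12 a lower one (24%), against 33.6% of all genes, or 37 in either direction (74%), against 61.9% of all genes. The median difference was 0.23, beside -0.03 over all genes. The 9 whose difference exceeded 2-fold in the MATIP direction were Psap, Atp6v0a1, Lgmn, Npc1, Sgsh, Ids, Lipa, Tfe3 and Idua. No share over all genes was taken at this 2-fold cut. Psap differed by 3.36 ± 0.09 (edgeR adjusted p = 3.34e-15), Atp6v0a1 by 2.62 ± 0.12, Lgmn by 2.40 ± 0.20 and Npc1 by 2.24 ± 0.09 on the log2 scale. Sgsh differed by 2.11 ± 0.18, Ids by 1.93 ± 0.27, Lipa by 1.75 ± 0.08, Tfe3 by 1.53 ± 0.12 and Idua by 1.33 ± 0.15. In the other direction Neu1 alone exceeded 2-fold, at -1.31 ± 0.08 (edgeR adjusted p = 5.66e-11). The remaining 16 with a higher MATIP response ran from 0.26 (Gusb) to 0.88 (Man2b1), and the remaining 11 with a lower one from -0.83 (Atp6v0b) to -0.24 (Ppt1). For Gaa and Gusb a higher MATIP response was a smaller fall. The smallest called differences depended on single libraries: those of Arsa, Ppt1, Atp6v1a, Atp6v0d1 and Gusb lost their call in 1 or more of the fits without 1 library, with edgeR adjusted p up to 0.113, 0.0916, 0.14, 0.0656 and 0.0774. With the length and GC trend removed the called differences of Ppt1 (0.065) and Atp6v0d1 (0.0040) turned sign and did not pass. Nor did those of Lamp2 (-0.14, edgeR adjusted p = 0.147), Asah1 (-0.16, 0.103), Gaa (0.026, 0.849) and Atp6v0e (-0.024, 0.824). Differences that then passed were those of Atp6ap2 (0.33, edgeR adjusted p = 0.00146, against -0.16 as reported), Atp6v1d (0.23, 0.0263), Ctns (0.33, 0.0497) and Gm2a (-0.27, 0.0155). The 13 not called without that correction were Ctns, Cln3, Gm2a, Galc, Smpd1, Npc2, Galns, Arsb, Tpp1, Atp6v1d, Atp6v1h, Atp6ap1 and Atp6ap2, with differences between -0.16 and 0.19. The number with a lower MATIP response was 7 with upper-quartile scaling, which moved the median MATIP change of all genes to 0.15.

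**Figure D4:**
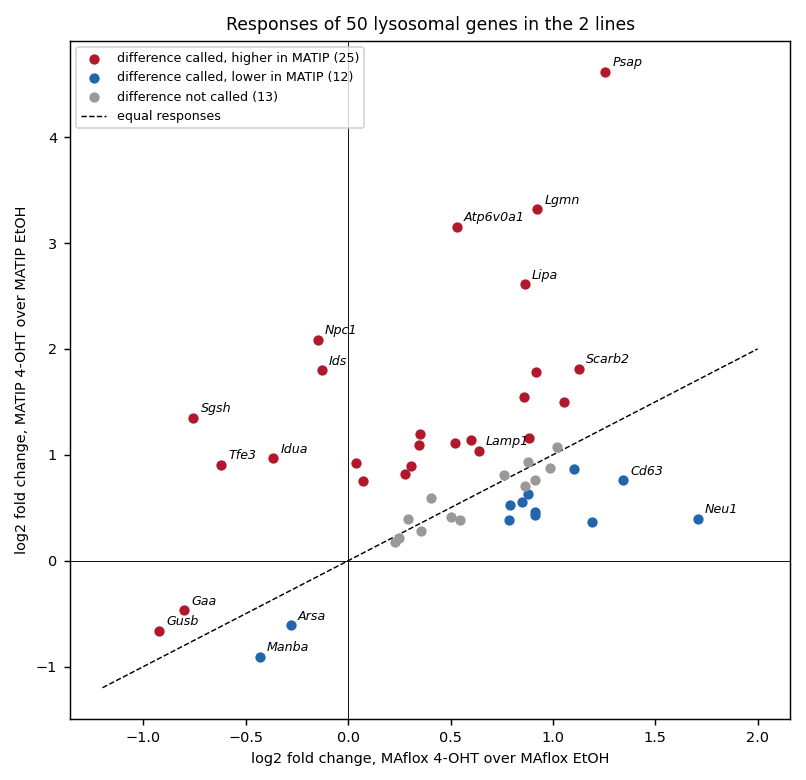
The log2 response of each of the 50 tested lysosomal genes in MATIP cells (vertical axis) is drawn against its response in MAflox cells (horizontal axis), with the dashed line marking equal responses. Red points mark the 25 genes with a called higher MATIP response, blue points the 12 with a lower one and grey points the 13 not called; Npc1, Sgsh, Idua and Tfe3 lie left of 0 in MAflox cells and above 0 in MATIP cells.

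Without 4-OHT the lines also differed. In EtOH 29 of the 50 members were higher in MATIP than in MAflox cells (58%), against 20.3% of all genes tested, and 1, Gla, was lower (2%), against 11.7% of all genes, or 30 in either direction (60%), against 32% of all genes. With upper-quartile scaling 9 of these 30 calls were lost. Asah1 and Ppt1 lost theirs with DESeq2 and with RLE scaling as well. These baseline differences were small, with a median of 0.23, beside 0.02 over all genes. Neu1 had the largest, at 1.21 ± 0.06 on the log2 scale (edgeR adjusted p = 5.22e-12), followed by Cd63 at 0.84 ± 0.06 and Lipa at 0.65 ± 0.06. Psap was higher in MATIP cells by 0.32 ± 0.06. Tfeb was higher by 0.34 ± 0.11 (edgeR adjusted p = 0.0199), a call lost without MATIP EtOH replicate 1 (edgeR adjusted p = 0.22), without MAflox EtOH replicate 2 (0.172) and without MATIP 4-OHT replicate 2 (0.0511). Gla differed by -0.22 ± 0.08 (edgeR adjusted p = 0.0371), and its call was lost when the trend with transcript length and GC content was removed or without either EtOH replicate 1. The response difference and the EtOH baseline share their EtOH libraries.

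Other genes of the pathway, 127 in 5 lists, were set beside the members. Over all genes tested 37.5% rose and 38.6% fell in MATIP cells, and 33.1% rose and 32.1% fell in MAflox cells. Of 29 tested enzymes and activators outside the list, 21 rose (72.4%) and 3 fell (10.3%) in MATIP cells, and 20 rose (69%) and 5 fell (17.2%) in MAflox cells. Plbd1, a phospholipase B-like protein, had counts of 158 and 169 in MATIP 4-OHT libraries, against 0 and 10 in MATIP EtOH libraries, and 358 and 350 in MAflox 4-OHT libraries, against 0 and 0 in MAflox EtOH libraries. Dnase2a, the lysosomal DNase, had 33.6 and 31.99 CPM in MATIP 4-OHT libraries, against 101 and 97.2 CPM in MATIP EtOH libraries (log2 change -1.60 ± 0.06), and rose by 0.20 in MAflox cells, a call lost without MAflox EtOH replicate 2 (edgeR adjusted p = 0.0532). Nagpa, the uncovering enzyme of the mannose-6-phosphate tag, fell by 0.84 in MATIP cells and by 0.69 in MAflox cells on the log2 scale. Of 37 other membrane proteins and transporters, 28 rose (75.7%) and 4 fell (10.8%) in MATIP cells, and 15 rose (40.5%) and 7 fell (18.9%) in MAflox cells. Slc11a1, the phagosomal metal transporter, had 179 and 170.4 CPM in MATIP 4-OHT libraries, against 3.48 and 2.43 CPM in MATIP EtOH libraries (log2 change 5.91 ± 0.12), and 8.52 and 8.704 CPM in MAflox 4-OHT libraries, against 1.43 and 1.101 CPM in MAflox EtOH libraries (log2 change 2.78 ± 0.15). Mcoln3, a channel related to Mcoln1, had 28 and 41 counts in MATIP 4-OHT libraries, against 0 and 0 in MATIP EtOH libraries. The 2-pore channel gene Tpcn1 changed by -0.91 in MATIP cells and -0.61 in MAflox cells, and the lipid transporter gene Abca2 by -0.65 in MATIP cells and -1.74 in MAflox cells (log2).

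Among 11 other tested pump subunits and isoforms, 7 rose (63.6%) and 3 fell (27.3%) in MATIP cells, and 10 rose (90.9%) and 1 fell (9.09%) in MAflox cells. Atp6v0d2, the d subunit isoform of osteoclasts and macrophages and a marker in the osteoclast list, had 449 and 440.3 CPM in MATIP 4-OHT libraries, against 6.22 and 5.21 CPM in MATIP EtOH libraries (log2 change 6.29 ± 0.09). It had 35.2 and 29.8 CPM in MAflox 4-OHT libraries, against 1.79 and 1.82 CPM in MAflox EtOH libraries (log2 change 4.17 ± 0.11). The ubiquitous isoform gene Atp6v0d1 had log2 changes of 0.63 in MATIP cells and 0.88 in MAflox cells. Atp6v1c2 had 52 and 45 counts in MATIP 4-OHT libraries, against 8 and 4 in MATIP EtOH libraries, and 44 and 32 in MAflox 4-OHT libraries, against 0 and 4 in MAflox EtOH libraries. The assembly factor gene Ccdc115 had 38.3 and 40.8 CPM in MATIP 4-OHT libraries, against 107 and 105 CPM in MATIP EtOH libraries (log2 change -1.42 ± 0.06), while in MAflox cells it rose by 0.58. Atp6v0a2, an a subunit isoform, changed by 0.47 in MATIP cells and by -0.21 in MAflox cells (log2), where its call was lost without MAflox 4-OHT replicate 2 (edgeR adjusted p = 0.0583) or MAflox EtOH replicate 2 (0.0806).

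Of 23 genes that deliver enzymes to lysosomes, 13 rose (56.5%) and 5 fell (21.7%) in MATIP cells, and 11 rose (47.8%) and 7 fell (30.4%) in MAflox cells. Grn, the precursor of the granulins, which travels with prosaposin, had 1281 and 1337 CPM in MATIP 4-OHT libraries, against 255 and 253 CPM in MATIP EtOH libraries (log2 change 2.37 ± 0.08). In MAflox cells Grn had 368 and 299 CPM with 4-OHT, against 195 and 189 CPM with EtOH (log2 change 0.80 ± 0.07). Grn, like Psap, rose in both lines. The 2 genes of the enzyme that starts the mannose-6-phosphate tag moved apart: Gnptg rose by 0.84 in MATIP cells and 1.15 in MAflox cells, while Gnptab changed by -0.72 in MATIP cells and -1.03 in MAflox cells (log2). The sorting adaptor gene Gga2 changed by -0.73 in MATIP cells and -0.20 in MAflox cells, where its call was lost without MAflox 4-OHT replicate 1 (edgeR adjusted p = 0.06) or MAflox EtOH replicate 2 (0.0743). Of 21 genes of the lysosomal mTORC1 platform and MiT/TFE regulation, 12 rose (57.1%) and 5 fell (23.8%) in MATIP cells, and 12 rose (57.1%) and 7 fell (33.3%) in MAflox cells. Rragd, a Rag GTPase, had 136 and 164 counts in MATIP 4-OHT libraries, against 0 and 12 in MATIP EtOH libraries, and 62 and 62 in MAflox 4-OHT libraries, against 0 and 2 in MAflox EtOH libraries. Rragb had 1.99 and 1.13 CPM in MAflox 4-OHT libraries, against 5.95 and 5.51 CPM in MAflox EtOH libraries (log2 change -1.87 ± 0.29), and its MATIP change did not pass (edgeR adjusted p = 0.0918). The coactivator gene Ppargc1a had 187 and 183 counts in MATIP 4-OHT libraries, against 2 and 2 in MATIP EtOH libraries, and the repressor gene Zkscan17 changed by -0.61 in MATIP cells and -1.31 in MAflox cells.

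In the authors' deposited table the log2 changes had the same sign for all 50 tested members in both lines. The authors' deposited table called 46 members up and 4 down in MATIP cells and 38 up and 7 down in MAflox cells, where Npc1 and Mcoln1 were called here and not there. In MAflox cells the change of a gene moved with its length: the 2641 shortest of the genes tested (up to 1849 bases) had a median log2 change of 0.31 and the 2637 longest (5126 bases and more) one of -0.37, beside -0.03 and 0.09 in MATIP cells. Of the members, 2 lay among the shortest and 2 among the longest of these genes, and with the length and GC trend removed 40 rose and 6 fell in MAflox cells. Some exon bases of 14 members are shared with another annotated gene, 13 of them on the opposite strand, and 6 members share over 10% (Arsb, Sgsh, Arsa, Hexa, Acp2 and Atp6v0b). The part of length and of shared bases in these results was not tested beyond the correction for length and GC content.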

How the data were processed

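RNA from 8 libraries was sequenced. The authors deposited raw read counts by gene symbol as whole numbers, 1 column per library. Per the submitters' processing notes the authors used HISAT2 2.1.0, Trimmomatic 0.38.0, DESeq2 and featureCounts 1.6.4 with the build mm10; the sources used here give neither strandedness, annotation nor multi-mapping. Log2 fold changes and adjusted p-values, as the authors computed them for each line, form a second deposited table, per the file headers.

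Groups came from the labels. Genes passing filterByExpr (minimum count 10, total 15) were tested with edgeR 4.0.16 (R 4.3.3), quasi-likelihood, on TMM-scaled counts of all 8 libraries with 1 coefficient per group (4 residual degrees of freedom), adjusted by Benjamini-Hochberg over 13722 genes and called at 0.05. The standard error is the size of the log2 change over the square root of F. The fit was also run on simulated counts with far fewer changed genes than were called here. That run checks the code and not the scaling of these data. Each pair of replicates varied beyond sampling noise, with a chi-square per degree of freedom of 6.38 to 11.5. Positions and lengths are from GENCODE M21 (mm10), and promoters from RefSeq (GRCm38.p6).

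Members and lists were chosen with earlier results of these data known. Values per library are given for Lamp1, Lamp2, the MiT/TFE genes, the largest called rise, fall and response difference of each role group and the members called in opposite directions; of each list of other genes, the largest called rise and fall per line are named. Values of Lipa and Tpp1 were added after they were seen. Alternatives were DESeq2 1.42.0, other scaling factors and filters, limma 3.58.1 (voom), only the groups compared, a replicate block, a length and GC correction, and leaving out each library.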

Additional observations from a re-analysis of the deposited data

Results flagged for a closer look

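By the edgeR test of the difference itself, responses to 4-OHT differed between MATIP and MAflox cells for 37 of the 50 tested members (74%). The share over all genes tested was 61.9%. The responses also differed for 15 of the other pathway genes named above and for Kat5. Those genes were named for large called changes in these data, so the number 15 is no result about the pathway. The values are MATIP minus MAflox log2 responses. The member difference was positive for Psap (3.36), Atp6v0a1 (2.62), Lgmn (2.40), Npc1 (2.24), Sgsh (2.11), Ids (1.93), Lipa (1.75), Tfe3 (1.53), Idua (1.33), Man2b1 (0.88), Mitf (0.87), Glb1 (0.85), Naglu (0.75), Scarb2 (0.69), Tfeb (0.68), Pla2g15 (0.68), Gla (0.59), Acp2 (0.58), Mcoln1 (0.54), Atp6v1c1 (0.54), Fuca1 (0.44), Lamp1 (0.40), Gaa (0.33), Atp6v1b2 (0.27) and Gusb (0.26). It was negative for Neu1 (-1.31), Atp6v0b (-0.83), Cd63 (-0.58), Asah1 (-0.48), Manba (-0.47), Lamp2 (-0.45), Hexa (-0.40), Arsa (-0.33), Atp6v0e (-0.29), Atp6v1a (-0.26), Atp6v0d1 (-0.25) and Ppt1 (-0.24). Among the other pathway genes it was positive for Ppargc1a (5.29), Slc11a1 (3.13), Rragb (2.74), Atp6v0d2 (2.13), Grn (1.57), Abca2 (1.10), Zkscan17 (0.69), Atp6v0a2 (0.68) and Gnptab (0.31), and negative for Plbd1 (-6.36), Ccdc115 (-2.00), Dnase2a (-1.80), Gga2 (-0.54), Gnptg (-0.31) and Tpcn1 (-0.30). The value of Plbd1, with 0 counts in both MAflox EtOH libraries, depends on the prior count of the fit and is no bound on a fold. The differences of Plbd1 (edgeR adjusted p = 1 without MATIP EtOH replicate 2), Ppargc1a (0.828 without MAflox EtOH replicate 1), Tpcn1 (up to 0.287), Gnptg (up to 0.133) and Gnptab (0.0537 without MAflox EtOH replicate 2) lost their call in fits without 1 library, and those of Tpcn1 and Gnptg also with RLE factors, upper-quartile factors and DESeq2. Kat5 differed by -2.82.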

How the results depend on the processing

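Of 3130 comparisons of a member's value between the fit reported and an alternative, 2969 kept direction and side of the threshold, and 35 reversed, of which 6 belonged to called values. Leaving out each library in turn gave 45 to 46 members higher and 4 lower in MATIP cells, 38 to 39 higher and 5 to 8 lower in MAflox cells (5 without MAflox 4-OHT replicate 2), 24 to 25 with a higher and 10 to 13 with a lower MATIP response, and 22 to 27 higher and 0 to 1 lower in EtOH. Leaving out a library leaves a lone sample in its group, which is assumed to vary like the other groups. Members with a lower MATIP response numbered 7 with upper-quartile factors, 8 with RLE factors and 9 with DESeq2, against 12 as reported, and 8 with the length and GC trend removed. Members lower in EtOH numbered 0 with that trend removed. The causes were not tested. Deviations of the replicates correlated at -0.0023 in MAflox cells and -0.039 in MATIP cells over 2 pairs each, so no pairing was seen. With 2 libraries per group this cannot show that replicate numbers do not pair the samples. With the replicate block 39 members were higher and 7 lower in MAflox cells, and 46 and 4 in MATIP cells. The response difference then had 25 higher and 12 lower. The block could not be applied to the EtOH comparison, nor the fit of only the groups compared to the response difference.

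Log2 values that turned sign were the MAflox responses of Npc1 (0.13), Atp6v0a2 (0.11) and Gga2 (0.074) with the length and GC trend removed, and of Npc1 (0.12), Atp6v0a2 (0.11) and Gga2 (0.074) with the replicate block as well. For the response difference they were Tpp1 (0.023), Atp6v1h (0.039) and Atp6ap1 (0.00094) with DESeq2, Tpp1 (0.023), Atp6v1h (0.039) and Atp6ap1 (0.0010) with RLE factors, Cln3 (0.022), Smpd1 (0.047), Tpp1 (0.083), Atp6v1h (0.098) and Atp6ap1 (0.061) with upper-quartile factors, Atp6v1h (0.0064) with the stricter filter and Rragd (0.066) with limma-voom. With the length and GC trend removed they were Ppt1 (0.065), Arsb (-0.097), Atp6v0d1 (0.0040), Atp6v1h (0.071), Atp6ap1 (0.11), Atp6ap2 (0.33) and Gnptab (-0.013), and with the replicate block as well Ppt1 (0.066), Arsb (-0.098), Atp6v0d1 (0.0037), Atp6v1h (0.072), Atp6ap1 (0.11), Atp6ap2 (0.33) and Gnptab (-0.015). Over the fits that leave out 1 library, values turned sign for the MAflox responses of Man2b1 (-0.055 to 0.15), Ids (-0.45 to 0.15) and Mcoln3 (-3.18 to 4.73) and for the response differences of Atp6v1h (-0.074 to 0.020), Smpd1 (-0.22 to 0.048), Rragd (-4.21 to 4.35), Atp6ap1 (-0.12 to 0.00065), Galns (-0.0021 to 0.12) and Arsb (-0.0090 to 0.16). Atp6v0c, with at most 11 counts in a library, was not tested.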
